A study of Mus musculus with 32 samples.

Results

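The lung mesenchyme in these data comprised 125 single cells of the 1916 cells sequenced from 8 organs of mouse embryos. The cells were chosen by 2 labels that accompany the data, the organ from which a cell was dissected (lung) and the cell type that the study assigned to it from its expression (Mes, for mesenchymal). Of 224 cells picked from the lung, 213 were kept by the study, and these were 125 mesenchymal cells, 52 epithelial cells, 7 haematopoietic cells, 7 further cells of the epithelial group, 21 further cells of the mesoderm-derived group without the mesenchymal label, and 1 cell without a name. The embryos were C57BL/6J mice without any treatment or transgene, collected at E9.5, E10.5 and E11.5 (days after fertilisation). Mesenchymal cells came from 6 embryos, with 30 cells from E9.5 embryo 2, 28 from E9.5 embryo 3, 20 and 14 from E10.5 embryos 1 and 2, and 8 and 25 from E11.5 embryos 1 and 2. E9.5 embryo 2 was labelled female and the other embryos male. The lung cells were compared with the cells of the same label in the intestine (74 cells of 7 embryos), liver (76 cells of 3 embryos, all E9.5) and skin (77 cells of 6 embryos). All came from 1 set of 7 embryos, but only the intestine had such cells from each of them. Lung and skin had none from E9.5 embryo 1. Lung and liver cells of E9.5 embryo 3 were deposited together and were told apart by the organ in the name of each cell.

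Mesenchyme is the loose connective tissue around the epithelium of a forming organ. In the lung it lies around the epithelial buds that grow out of the ventral foregut, sends them signals of the FGF, WNT and BMP families that direct budding and branching, and receives Sonic hedgehog from them in return. At the stages sampled here the primary buds form and begin to branch, and the mesenchyme next to the airway starts to give rise to airway smooth muscle, while other mesenchymal cells become fibroblasts, pericytes and vessel wall.

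Each cell was sequenced as unique molecular identifiers (UMIs, a tag on every captured mRNA molecule), with a median of 261279 UMIs per lung mesenchymal cell (28014 to 1556349). All levels are given as log2(value/10 + 1), where the value is a gene's UMIs scaled to 1000000 UMIs in each cell, so that a difference of 1 is about a doubling for well expressed genes and less than that for low ones. A cell was counted as expressing a gene at a level of 1 or more. Levels were averaged over the cells of each embryo. These means were the replicates (6 for the lung), since cells of 1 embryo share their source. Tests were made with limma across 14086 genes with embryonic stage as a covariate, and a gene was called at a Benjamini-Hochberg adjusted p below 0.05 and a difference of at least 1 (at least 0.5 per day for changes with time). Organ and stage were set by dissection and did not depend on expression, whereas the cell type label did, so differences from epithelial cells of the lung are given as descriptions without a test.

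Single embryos stood apart before any comparison. Both E10.5 embryos were deposited as 1 sample and both E11.5 embryos as another, so the 6 embryos come from 4 deposited samples, the embryo of a cell is known from the name of the cell, and at these stages the day and the deposited sample cannot be told apart. E9.5 embryo 2 was labelled HiSeq 2500 (the other lung samples HiSeq 4000, the platform that the methods of the study give for all libraries, so the labels and the methods differ here) and was the deepest, with a median of 737157.5 UMIs per cell against 151228.5 to 275651 in the other 5 embryos. It also had the highest summed level of 8 cardiomyocyte markers (8.35, against 0.81 to 3.27 in the other embryos) and of 9 mesothelial markers (4.26, against 0.38 to 1.96). E10.5 embryo 2 had the highest summed level of 10 genes of the early response to tissue dissociation (39.87, against 8.44 to 16.88), and E11.5 embryo 1 that of 9 epithelial markers (11.19, against 3.49 to 6.48, and 36.4 to 42.55 in epithelial cells of the lung). Embryonic globin RNA was present in the mesenchymal cells of both E9.5 embryos (Hba-x at 6.46 and 3.96), absent at E10.5 (0 in both embryos) and low at E11.5 (1.45 and 0.22), and the summed level of 8 blood markers was nearly the same in epithelial cells of the same embryos (17.75 and 17.25 in E9.5 embryo 2). The summed level of 8 endothelial markers was 2.49 and 3.47 at E9.5 and 0.92 to 1.75 later, with 1 marker at 1 or more in 5 of the 6 embryos. Of these markers Egfl7 was expressed by 50 of 125 mesenchymal cells, Plvap by 17, Kdr by 12 and Tek by 8, whereas Cdh5 and Emcn were each expressed by 1 cell and Pecam1 and Tie1 by none (0 of 125). The part of these signals in the results below was not tested except where a value without the embryo is given. No 2 mesenchymal cells held identical values.

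**Figure D1:**
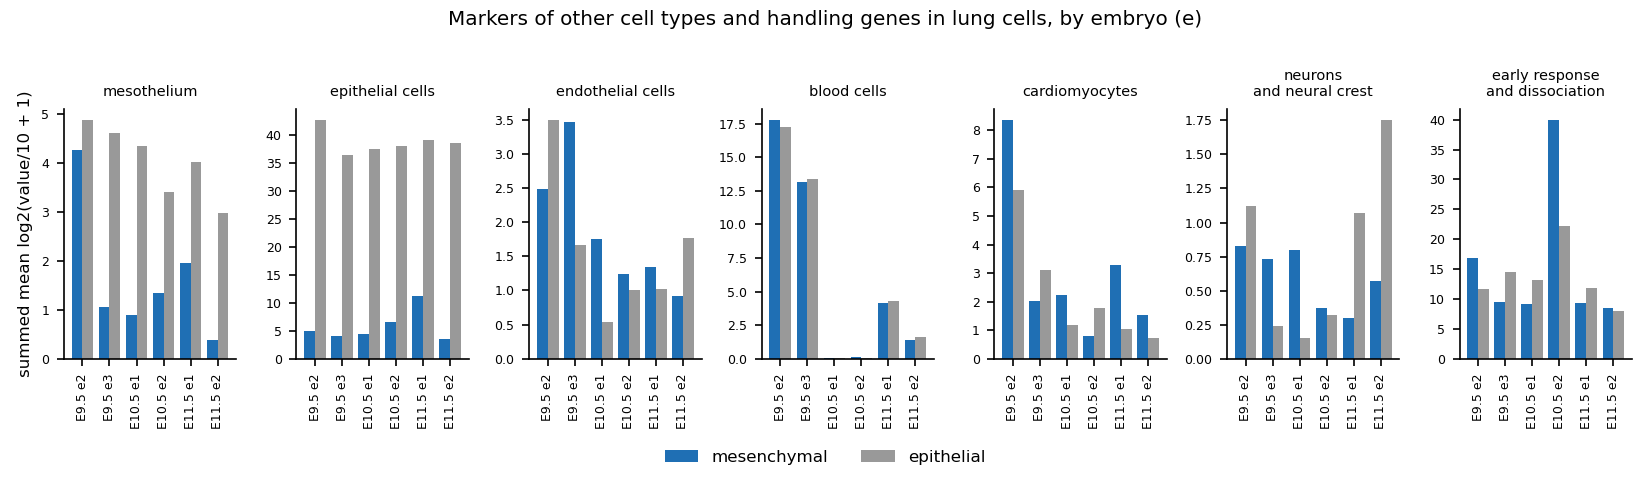
Summed level of markers of other cell types and of handling genes, as the sum of the mean log2(value/10 + 1) of the genes of each list (vertical axes, a separate scale per panel), in mesenchymal (blue) and epithelial (grey) cells of each lung embryo (horizontal axis). Blood markers have about the same height in both cell types of an embryo, the cardiomyocyte list peaks at 8.35 in mesenchymal cells of E9.5 embryo 2, and the early response list peaks at 39.87 in those of E10.5 embryo 2.

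Genes that set the lung mesenchyme apart from the mesenchyme of other organs were examined first. The largest differences were in Osr1, Mgp, Sparcl1 and Tbx5, all of which were higher in the lung than in each of the other 3 organs. Osr1 (odd-skipped related 1, a zinc finger transcription factor of foregut and kidney mesoderm, chromosome 12, 9570116 to 9581500, + strand, GRCm38 with GENCODE M21) had levels of 6.20 and 5.02 at E9.5, 4.47 and 5.11 at E10.5, and 3.95 and 4.37 at E11.5. The highest level in any embryo was 0.54 in the intestine, 0.57 in the liver and 0.94 in the skin, so that no lung embryo overlapped with any embryo of another organ. The difference from the mean of the 3 organs was 4.61 ± 0.22 (SE, higher in 6 of 6 embryos, limma adjusted p = 1.31e-12), and it was 4.18 or more against each organ. Here and below, such counts set each lung embryo against the mean of the other organs of the same embryo. At E10.5 and E11.5 these were the intestine and the skin alone. Osr1 was expressed by 121 of 125 lung mesenchymal cells (96.8%), against 3 of 74 in the intestine, 6 of 76 in the liver, 17 of 77 in the skin and 14 of 52 lung epithelial cells. With every cell thinned to 100000 UMIs these numbers were 107 of 111, 5 of 63, 9 of 73 and 17 of 69 for the 4 organs.

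Mgp (matrix Gla protein, a secreted inhibitor of calcification and of BMP signalling, chromosome 6, 136872435 to 136875823, − strand) reached 1.34, 2.32, 4.89, 4.46, 6.83 and 7.39 in the 6 lung embryos in order of stage. It stayed below 1 in every embryo of the other organs (highest 0.99 in the intestine), and even the lowest lung embryo lay above that value. The difference from the mean of the other organs was 3.99 ± 0.48 (6 of 6 embryos, limma adjusted p = 3.25e-05). Against the liver alone the difference of 3.46 ± 0.74 (limma adjusted p = 0.0126) lost its call in 5 alternatives, among them the E9.5 embryos 1 and 3 and E10.5 embryo 2 left out in turn. In lung epithelial cells Mgp was at 0.00 and 0.05 at E9.5, 0.86 and 1.39 at E10.5 and 2.49 and 2.19 at E11.5, always below the mesenchymal cells of the same embryo. Mgp was at 1 or more in 90 of 125 lung mesenchymal cells and in 33 of 52 lung epithelial cells (none of 15 at E9.5 and each of 21 at E11.5). Whether the share in epithelial cells stems from expression by them was not tested, as for Acta2 below. The paper counts Mgp among the lung genes that its epithelial and mesenchymal cells share. In the other organs 7 of 74 intestinal, 4 of 76 liver and 2 of 77 skin mesenchymal cells reached this level.

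Sparcl1 (SPARC-like 1, a secreted glycoprotein of the matrix, chromosome 5, 104079111 to 104113733, − strand) ranged from 2.73 to 5.75 in the lung (median 4.54), with the lowest value in E9.5 embryo 3. The other organs had medians of 0.67 (intestine), 0.15 (liver) and 1.26 (skin), but E9.5 embryos of the intestine and the skin reached up to 3.71 and 3.23 and overlapped with the lung. The difference from the mean of the organs was 3.65 ± 0.49 (6 of 6 embryos, limma adjusted p = 0.000102). Col3a1 (the chain of type III collagen, chromosome 1, 45311538 to 45349706, + strand) marked the mesenchyme of all the organs rather than that of the lung. It was expressed by 124 of 125 lung cells, 74 of 74 intestinal, 59 of 76 liver and 77 of 77 skin cells, its lung level (3.81 to 5.82) overlapped with all 3 organs, and it was lower in the lung than in the skin by 1.29 ± 0.36 (limma adjusted p = 0.0392). These 4 markers were chosen with earlier results of these data known, so their levels describe the cells and do not test their label.

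**Figure D2:**
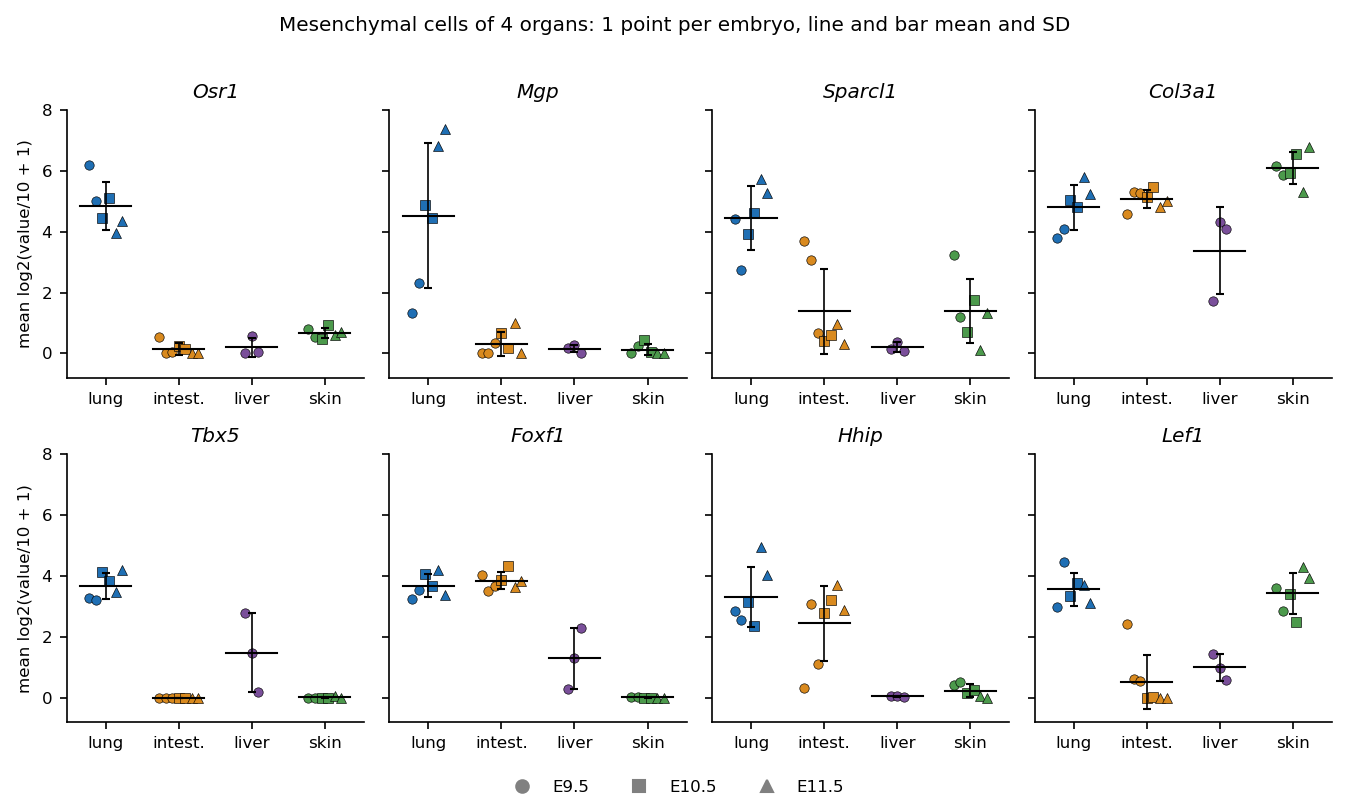
Level of 8 genes as mean log2(value/10 + 1) per embryo (vertical axis) in mesenchymal cells of 4 organs (horizontal axis). Each point is 1 embryo (circle E9.5, square E10.5, triangle E11.5), and the line and bar are mean and SD over embryos. Osr1 and Mgp lie above every embryo of the other organs in all 6 lung embryos, Foxf1 and Hhip are shared with the intestine, Lef1 with the skin, and Col3a1 is high throughout.

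In all, 57 genes were called higher and 47 lower in the lung than in the mean of the 3 other organs (0.738% of the genes tested, 0.405% higher and 0.334% lower). Of these, 48 and 43 went the same way in every lung embryo, each set against the other organs of the same embryo. The 10 with the largest increase among them were Osr1, Mgp, Sparcl1, Tbx5, Nkain4, Smpx, 2010111I01Rik, Pde5a, Hhip and Arl4a. Nkain4, which encodes a protein that interacts with the sodium pump, was at 2.75 to 4.37 in the lung (median 3.67) and at most at 1.36 in any other embryo. Smpx, a small protein of striated muscle, was at 0.68 in E9.5 embryo 2 but at 2.48 to 4.38 in the other 5 lung embryos, against 1.5 or less elsewhere. Pde5a, the cGMP-specific phosphodiesterase 5A of smooth muscle, was at 2.18 to 4.29 in the lung, and only the intestine came near (0.35 to 2.61). Arl4a, a small GTPase of the ARF family, ranged from 1.69 to 4.33 in the lung and overlapped with the intestine and the skin.

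The 10 largest decreases were those of Mab21l2, Alcam, Lum, Lix1, Sfrp1, Crabp1, Limch1, Colec12, Serpinf1 and Akap12, the last with an adjusted p of 0.0499 (limma). Of 15 alternatives, Akap12 lost its call in 11, Limch1 in 8, Sfrp1 in 4, Lum in 2, and Crabp1 and Mab21l2 in 1 each. Mab21l2, which is needed for eye and body wall development, was at 0 in 5 lung embryos and at 0.17 in E10.5 embryo 2, against medians of 4.95 in the intestine and 2.93 in the liver. Alcam, a cell adhesion molecule, was at 0.12 to 0.62 in the lung, as low as in the intestine (0.00 to 0.30), and far below the liver (3.04 to 3.95) and the skin (2.93 to 6.41). Lum (lumican, a collagen-binding proteoglycan) did not exceed 0.22 in any lung embryo while the skin had 3.28 to 5.44. Crabp1 (a cytoplasmic retinoic acid binding protein) was lower in the lung than in the skin by 5.42 ± 0.44 (limma adjusted p = 1.57e-08), the largest of the decreases against the skin, with 0.38 to 2.38 in the lung and 5.38 to 7.11 in the skin.

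Transcription factors known from lung mesenchyme were then read as a group. Of 20 such genes, 8 were called higher in the lung than in the mean of the other organs (Tbx2, Tbx3, Tbx5, Foxf1, Osr1, Nfib, Hoxa5 and Isl1) and 1 lower (Twist1). Among all genes tested, 0.405% were called higher and 0.334% lower. The median difference was 0.45 against −0.03 over all genes. Osr1 is also among the markers described above, and the list was chosen with earlier results of these data known. Tbx5, a T-box factor required for the lung buds to form, was at 3.21 to 4.21 in the lung. It was at 0 in all 7 intestinal embryos and at 0.06 or less in the skin, whereas the 3 liver embryos had 0.17, 1.48 and 2.77, and the lung was higher than the liver by 2.07 ± 0.38 (limma adjusted p = 0.00325). Tbx5 was expressed by 110 of 125 lung cells, 37 of 76 liver cells and no cell of the intestine (0 of 74) or the skin (0 of 77). The related Tbx2 and Tbx3 had 0.77 to 2.76 and 1.64 to 3.31 in the lung, both above every embryo of the other 3 organs. Tbx4, the neighbour of Tbx2 and a known marker of lung mesenchyme, was low, with 0.11 to 1.11 in the lung and expression in 35 of 125 cells, against 0 of 74 in the intestine, 0 of 76 in the liver and 1 of 77 in the skin. Its difference of 0.65 ± 0.10 (limma adjusted p = 0.000754) was below the size required for a call.

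Foxf1, a forkhead factor that responds to hedgehog signals in gut-derived mesenchyme, was as high in the intestine (3.5 to 4.34) as in the lung (3.25 to 4.20) and nearly absent from the skin (0.02 or less), so its difference from the mean (1.92 ± 0.22, limma adjusted p = 1.6e-05) came from the liver and the skin. Its paralog Foxf2 and the factor Tcf21, both of visceral mesenchyme, were lower in the lung than in the intestine (by 1.59 ± 0.25 and 1.62 ± 0.42) and higher than in the skin. Isl1, a LIM homeodomain factor of the second heart field and foregut mesoderm, was at 2.20 and 2.38 at E9.5 and at 0.70 and 0.53 at E11.5. Twist1, a basic helix-loop-helix factor of limb and facial mesenchyme, was at 0.41 or less in the lung against 1.82 to 4.08 in the skin.

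Factors known from the mesenchyme of the other organs were compared next, each list against its own organ. Of 8 intestinal mesenchyme factors tested, 5 were lower in the lung than in the intestine (Hand1, Hand2, Nkx2-3, Mab21l2 and Foxf2, median over the list −1.39), where 1.38% of all genes tested were called (94 higher, 100 lower). Nkx2-3, a homeobox factor of gut and spleen mesenchyme, was at 0.00 in each of the 6 lung embryos and at 3.01 to 5.08 in the 7 intestinal embryos. Hand1 did not exceed 0.02 in the lung and was at 2.48 to 5.35 in the intestine. The other genes with the largest decreases against the intestine were Saa1 and Saa2, acute phase apolipoproteins (0.00 to 1.17 and 0.00 to 1.25 in the lung, medians 5.4 and 5.03 in the intestine, where the lowest embryos had 0 and 0.87 and overlapped). The largest increases were in Osr1, Mgp, Tbx5, Nkain4 and Sparcl1.

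Against the liver, 38 genes were higher (0.27%) and 95 lower (0.674%), and 4 of 10 factors of liver and septum transversum mesenchyme were lower in the lung (Lhx2, Wt1, Gata4 and Alcam, median −1.19). The summed level of 9 mesothelial markers was 13.11, 6.62 and 11.85 in the liver cells against 0.38 to 4.26 in the lung, and Wt1 and Upk3b of that list were called lower in the lung than in the liver, and the part of this in the difference was not tested. Gata5, also of the liver list, was expressed by 59 of 125 lung cells and was higher in the lung than in the intestine (1.28 ± 0.17) and the skin (1.27 ± 0.18). Wt1, the Wilms tumour factor of mesothelium, was at 0.18 or less in the lung and at 1.74 to 3.40 in the liver. The largest increases over the liver were in Osr1, Sparcl1, Mgp, Lef1 and Arl4a, of which Arl4a lost its call in 6 alternatives and Lef1 with edgeR. Among the 5 largest decreases were Myl7, Tnni1 and Myl4, sarcomere genes of embryonic heart muscle, with Asb4, an ankyrin repeat protein, and Alcam. The liver cells carried Myl7 at 5.23 to 8.02, whereas in the lung it was at 3.07 in E9.5 embryo 2 and at 0.84 or less in the other 5 embryos. Since liver mesenchyme came from E9.5 alone, the organ and the stage of its cells can be separated only through the stage term of the fit, and without it 217 genes were called in place of 133.

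Against the skin, 98 genes were higher (0.696%) and 207 lower (1.47%). Of 11 factors of dermal mesenchyme, 8 were lower in the lung (Prrx1, Prrx2, Twist1, Msx1, Msx2, Alx4, Tfap2b and Crabp1, median −1.67) and none was higher. Msx2, a homeobox factor downstream of BMP signals, was at 0.00 to 1.91 in the lung and at 3.54 to 6.93 in the skin, and Prrx1, a paired-related homeobox factor of limb and skin mesenchyme, at 0.00 to 0.79 against 2.99 to 5.54. Neither overlapped. The largest increases over the skin were in Mgp, Osr1, Foxf1, Tbx5 and Nkain4, and the largest decreases in Crabp1, Alcam, Lum, Msx2 and Prrx1.

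The Hox genes, which mark position along the body axis in the order of their paralogous groups, differed between the organs. Of 39 Hox genes, 32 passed the filter on low values. Hoxa2 and Hoxa5 were called higher in the lung than in the mean of the other organs, where 0.405% of all genes tested were called higher. Hoxa5, which is required for normal lung and trachea formation, was at 1.69 to 2.86 in the lung (median 2.05) and at medians of 1.39 in the intestine, 0.18 in the liver and 0.00 in the skin, with a difference of 1.48 ± 0.25 (6 of 6 embryos, limma adjusted p = 0.00139). Hoxa2 was at 1.18 to 2.50 in the lung, and its difference was 1.40 ± 0.24 (limma adjusted p = 0.00139). Against the intestine, 5 genes of the middle and posterior groups were lower (Hoxa7, Hoxb6, Hoxb7, Hoxc8 and Hoxc9), as were 0.71% of all genes tested. Hoxc9 did not exceed 0.03 in the lung and was at 0.39 to 4.88 in the intestine. Against the skin, Hoxa2, Hoxa5, Hoxb2, Hoxb3 and Hoxb5 were higher, as were 0.696% of all genes tested. No Hox gene was called for a change with day in the lung, where 1.11% of all genes tested were called.

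**Figure D3:**
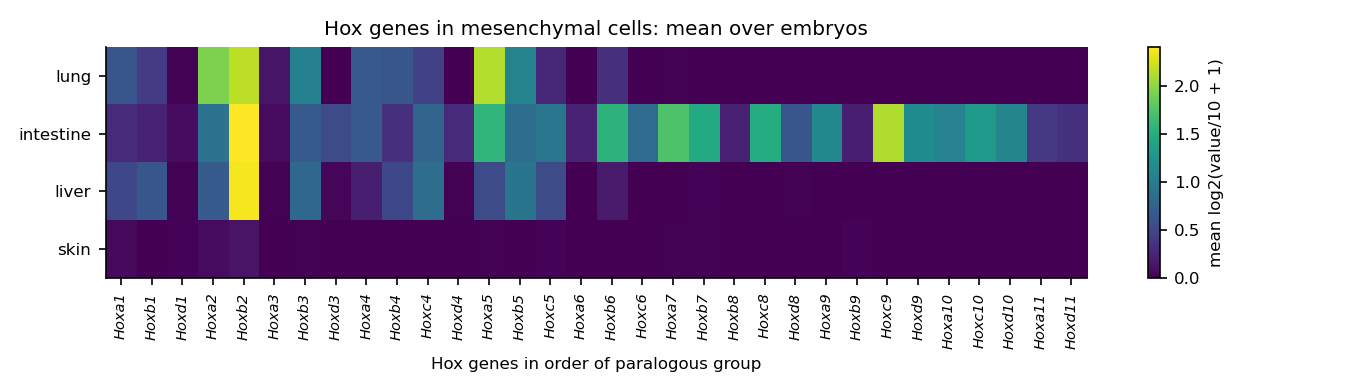
Mean level over embryos, as log2(value/10 + 1) on the colour scale, of the 32 Hox genes tested (horizontal axis, in order of paralogous group) in mesenchymal cells of 4 organs (vertical axis). In the lung Hoxb2, Hoxa5 and Hoxa2 have the highest means, the intestine also holds posterior genes such as Hoxc9, and the skin is near 0 throughout.

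Signalling genes were read by their role. Fgf10, the ligand that draws out the epithelial buds, was detected at 0.06 to 0.71 in the lung mesenchyme, by 16 of 125 cells, and did not exceed 0.14 in lung epithelial cells. Its receptor Fgfr2 was at 2.13 to 3.05 in the epithelial cells, and the FGF target Etv5 at 2.33 to 4.94 there and at 0.35 to 1.15 in the mesenchymal cells. None of the 8 FGF ligands and receptors and none of the 6 FGF response genes tested was called in any organ or day comparison. Over all genes tested, 0.348% to 2.17% were called in these comparisons, so no call in lists of this size is close to that share.

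For the hedgehog pathway the ligand was on the epithelial side. Shh, the ligand, was at 1.30 to 3.85 in lung epithelial cells and at 0.04 to 0.58 in the mesenchymal cells. Hhip, a surface protein that binds hedgehog ligands and is itself induced by them, was at 2.84, 2.56, 3.15, 2.37, 4.95 and 4.04 in the 6 lung embryos in order of stage. These values overlapped with the intestine (0.31 to 3.69) and not with the liver (0.06 or less) or the skin (0.52 or less), and Hhip was called higher than the mean of the organs (2.20 ± 0.36, limma adjusted p = 0.000905). Gli1, a transcription factor and target of the pathway, was at 0.65 to 1.56 in the lung, overlapping with the intestine (0.53 to 1.88), and its difference of 0.63 did not pass. Of the 12 pathway genes tested, Hhip was the only one called against the mean of the organs, where 0.738% of all genes tested were called. Ptch1, the receptor, was at 0.06 to 0.48 in the lung and was not called either.

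Among 19 WNT ligands, agonists and receptors, Rspo3 (R-spondin 3, an agonist) was called lower in the lung than in the mean of the other organs. Its level was 0 in 4 lung embryos and 0.29 at most. None of the 19 was called higher. Over all genes tested, 0.405% were called higher and 0.334% lower. Wnt2, a ligand needed for lung specification, was at 2.07 and 2.92 at E9.5, 1.30 and 1.42 at E10.5, and 0.00 and 0.34 at E11.5. The 3 stages did not overlap, but the slope of −1.16 ± 0.36 per day had an adjusted p of 0.132 (limma) and was not called. In cells the share expressing Wnt2 was 14 of 30 and 23 of 28 at E9.5, 7 of 20 and 5 of 14 at E10.5, and 0 of 8 and 2 of 25 at E11.5, while no lung epithelial cell (0 of 52) expressed it. Outside the lung, Wnt2 was found in the liver (0.39 to 4.87) and was almost absent from the intestine and the skin (0.16 or less).

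Of 13 WNT response genes and antagonists, Lef1, Sp5 and Sfrp2 were higher in the lung than in the mean of the organs and Sfrp1 was lower. Lef1, a transcription factor and target of WNT signalling, was at 2.97 to 4.45 in the lung and at 2.47 to 4.30 in the skin, which overlapped, against medians of 0.03 in the intestine and 0.98 in the liver. Sfrp2 and Sfrp1, both secreted WNT antagonists, went in opposite directions. Sfrp2 was at 1.69 to 5.41 in the lung and higher than the mean by 2.13 ± 0.34, whereas Sfrp1 was at 0.78 to 1.33 in 5 lung embryos and at 3.01 in E9.5 embryo 2 and was lower by 2.28 ± 0.50 (limma adjusted p = 0.0176). None of the 24 genes of the BMP and TGF-beta pathway tested was called against the mean of the organs, and Bmp4 was at 1.04 to 2.52 in the lung, within the range of the other organs. Of 13 retinoic acid genes, only Crabp1 was called against the mean. Of 17 growth and imprinted genes only Dlk1 was called, a non-canonical Notch ligand that was lower in the lung (0.26 to 1.39) by 1.64 ± 0.33. Over all genes tested, 0.738% were called in this comparison, so no call among 24 genes is close to that share.

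Changes with embryonic day were examined next. Within the lung mesenchyme 106 genes rose and 50 fell per day (1.11% of the genes tested, 0.753% and 0.355%), and the genes with the steepest rise were those of smooth muscle. Acta2 (smooth muscle alpha-actin, chromosome 19, 34241090 to 34255590, − strand) was at 0.47 and 0.05 at E9.5, 1.34 and 1.15 at E10.5, and 9.48 and 6.14 at E11.5. The step thus fell between E10.5 and E11.5. The slope was 3.77 ± 0.73 per day (limma adjusted p = 0.00613), and without E11.5 embryo 1 it was 2.66 and not called. Myl9 (smooth muscle myosin regulatory light chain, chromosome 2, 156775420 to 156781658, + strand) was at 1.68 and 0.73 at E9.5, 3.03 and 2.98 at E10.5, and 8.74 and 6.58 at E11.5, with a slope of 3.23 ± 0.47 (limma adjusted p = 0.00048). Actg2 (smooth muscle gamma-actin) was at 0.92 or less through E10.5 and at 7.47 and 4.68 at E11.5.

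Of 16 genes of smooth muscle and pericytes, 11 rose in the lung (Acta2, Tagln, Myh11, Cnn1, Actg2, Myocd, Lmod1, Mylk, Myl9, Tpm1 and Tpm2) and none fell. Among all genes tested, 0.753% rose and 0.355% fell. The median slope of the list was 1.41 per day against −0.01 over all genes. Myh11, the smooth muscle myosin heavy chain and a late marker, was at 0.33 or less through E10.5 and at 5.42 and 2.07 at E11.5. Myocd (myocardin, a coactivator of these genes) went from 0.15 and 0.47 at E9.5 over 0.97 and 1.04 at E10.5 to 2.69 and 1.95 at E11.5. The pericyte genes Pdgfrb and Cspg4 were not called. In each of the 11 genes E11.5 embryo 1, which had 8 mesenchymal cells, was the highest. Without it 5 of the 16 genes were called, and 6 were called among HiSeq 4000 libraries alone.

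The intestine and the skin differed from the lung in this. Acta2 had E9.5 means of 2.45 in the intestine and 3.10 in the skin, higher than in the lung, and E11.5 means of 2.17 and 0.75. The slope in the lung exceeded the mean slope of intestine and skin by 4.49 ± 0.88 per day (limma adjusted p = 0.019), and this difference was called for 7 of the 16 smooth muscle genes (Acta2, Myh11, Cnn1, Actg2, Lmod1, Mylk and Myl9), where 0.305% of all genes were called higher, 0.0426% lower and 0.348% in either direction. This count depended on the setting. It was 2 of the 16 genes with edgeR on summed UMIs and 2 without the filter on low values, with all embryos kept, and 1 gene was called without E11.5 embryo 1, 1 without E9.5 embryo 2, 3 without E9.5 embryo 3, 4 without E9.5 embryo 1 and 0 among HiSeq 4000 libraries.

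**Figure D4:**
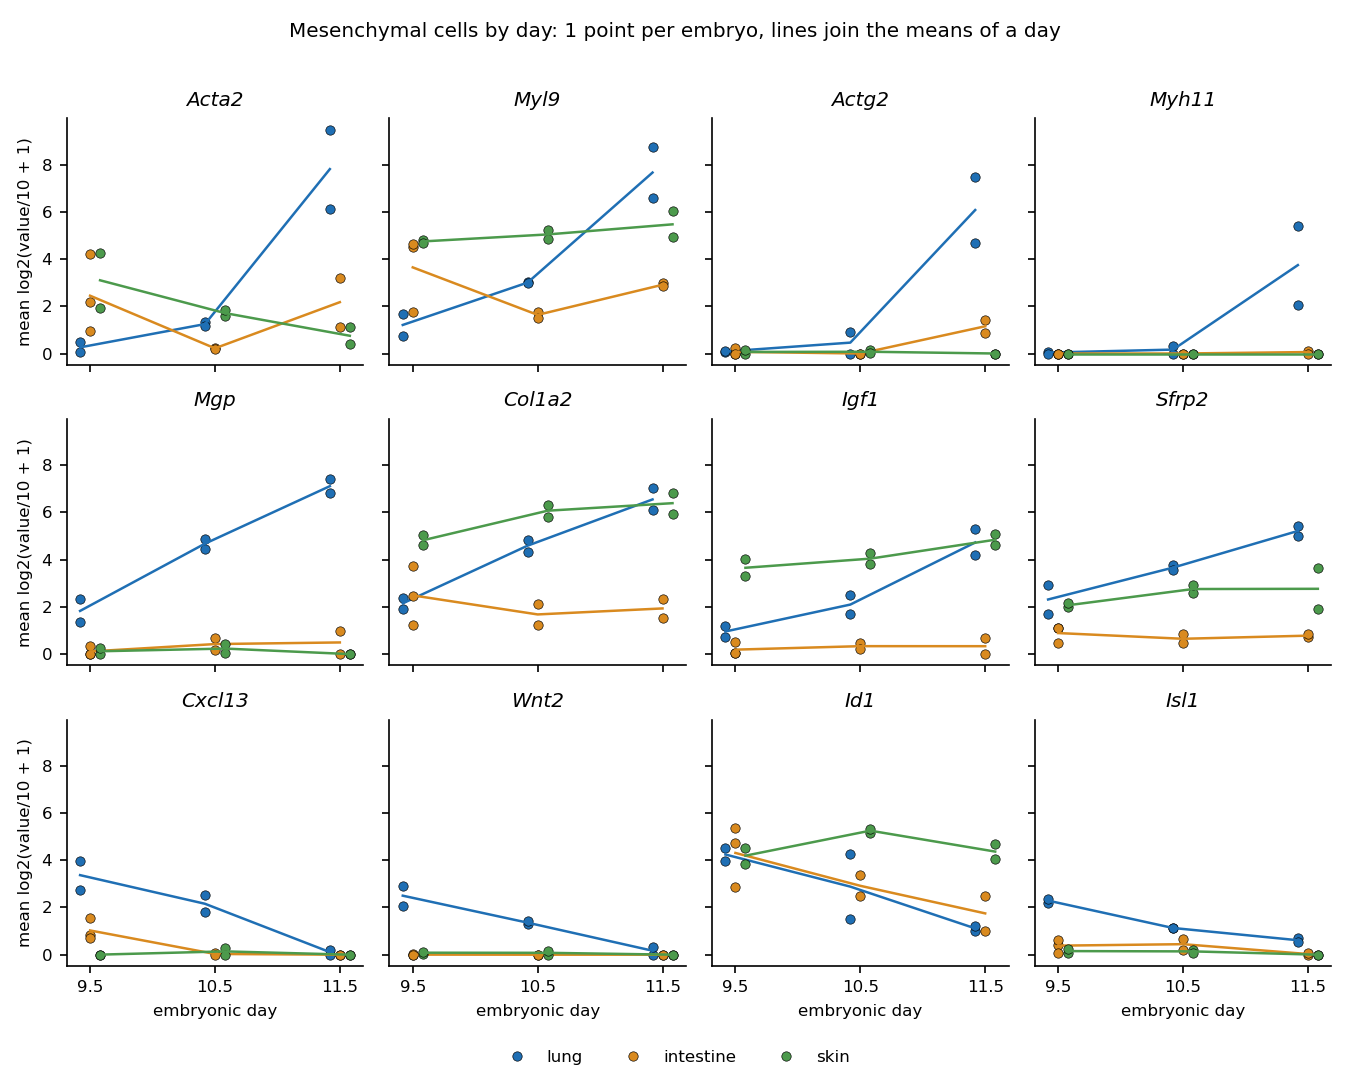
Level of 12 genes as mean log2(value/10 + 1) per embryo (vertical axis) by embryonic day (horizontal axis, organs slightly shifted sideways) in mesenchymal cells of lung (blue), intestine (orange) and skin (green). Points are embryos and lines join the means of a day. In the lung Acta2 goes from at most 1.34 at E10.5 to 6.14 and 9.48 at E11.5, Mgp climbs at each step, and Cxcl13 and Wnt2 end at or near 0.

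Genes of the extracellular matrix formed the other large group. Of 41 matrix genes, 10 rose in the lung (Col1a1, Col1a2, Col6a1, Col6a2, Sparc, Mgp, Mfap4, Pcolce, Lox and Lama4) and none fell. Among all genes tested, 0.753% rose and 0.355% fell. The median slope of the list was 0.35 against −0.01 over all genes. Mgp is also among the markers that were chosen with earlier results of these data known. Without E11.5 embryo 1, 2 of the 41 were called. Mgp, whose values are given above, had the smallest error among the steep genes (2.64 ± 0.19 per day, limma adjusted p = 1.52e-08), did not overlap between any of the 3 stages, and was called in each alternative except edgeR on summed UMIs (2.26, adjusted p = 0.369). Col1a2, a chain of type I collagen, went from 1.92 and 2.38 over 4.85 and 4.33 to 7.02 and 6.08. In the skin it was already at 4.60 or more at E9.5, and in the intestine it was at 3.75 or less at all stages. Lox (lysyl oxidase, which crosslinks collagen and elastin) was at 0.00 and 0.11 at E9.5 and at 3.05 and 2.36 at E11.5. Igf1, a growth factor, rose from 0.71 and 1.2 to 5.28 and 4.18 (1.88 ± 0.23 per day, limma adjusted p = 5.63e-05). Ednrb, the endothelin receptor type B, rose from 0.58 and 1.0 to 5.74 and 4.79, and Sfrp2 from 1.69 and 2.93 to 5.41 and 5.02. The slopes of Mgp, Ednrb, Igf1 and Sfrp2 also exceeded the mean slope of intestine and skin. This difference lost its call for Ednrb among HiSeq 4000 libraries and without E11.5 embryo 1, and for Mgp with edgeR.

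The genes that fell were led by Cxcl13, a chemokine that attracts B cells, which was at 3.98 and 2.75 at E9.5, 1.79 and 2.52 at E10.5, and 0.00 and 0.22 at E11.5 (−1.63 ± 0.20 per day, limma adjusted p = 5.63e-05). It was expressed by 19 of 30 and 14 of 28 cells at E9.5 and by 0 of 8 and 2 of 25 cells at E11.5. The other genes of the rule were Id1, Apoe, Ccnd2, Slc39a10, Gnl3, Brix1, Hsd11b2, Nhp2 and Uchl3. Id1 and Id2, inhibitors of basic helix-loop-helix factors and targets of BMP signalling, were the only members of the BMP and TGF-beta list that fell, while Tgfb3 and Tgfbi rose. Gnl3, Brix1 and Nhp2 serve ribosome assembly in the nucleolus, and Ccnd2 is cyclin D2. Ccnd2 was at 6.66 and 6.29 at E9.5 and at 3.5 and 4.46 at E11.5. Cxcl13 lost its call in 1 alternative, edgeR on summed UMIs (edgeR adjusted p = 0.291). Each of the 9 genes after Cxcl13 lost its call in at least 2 alternatives, Ccnd2 in 9 and Id1 in 8. Among lung factors Nfib rose (from 1.21 and 2.18 to 3.94 and 3.46), and Osr1 and Isl1 fell, as did Gata5, a GATA factor counted with the liver mesenchyme list.

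Single cells showed how the Acta2 rise was distributed. A level of 6 was taken as a dividing line after the values were seen. At E9.5 no cell exceeded 1.31. At E10.5, 2 of 20 and 1 of 14 cells lay above the line (highest 7.01 and 6.99). At E11.5 all 8 cells of embryo 1 lay between 7.92 and 10.79, whereas embryo 2 had 13 cells from 7.40 to 10.62 and 12 cells from 1.44 to 4.53, with no cell in between. The 12 lower cells had a mean of 2.69 ± 1.02 (SD), which was close to the epithelial cells of the same embryo (mean 2.44 over 3 cells, each at 1 or more) and to the 18 epithelial cells of E11.5 embryo 1 (mean 3.68, highest 7.38). Whether a level of this size stems from Acta2 expression by the 12 lower cells was not tested. At E9.5 and E10.5, 2 of 31 epithelial cells expressed Acta2.

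**Figure D5:**
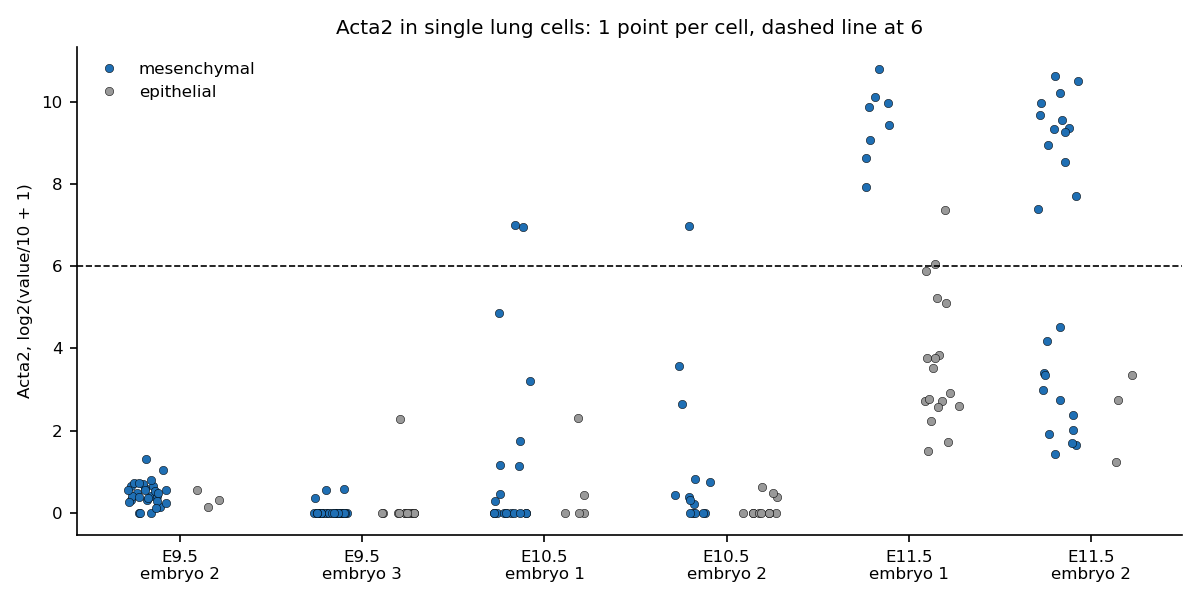
Level of Acta2 as log2(value/10 + 1) (vertical axis) in single mesenchymal (blue) and epithelial (grey) cells of each lung embryo (horizontal axis, points spread sideways). In E11.5 embryo 2 the mesenchymal cells fall into 13 above and 12 below the dashed line at 6, and in E11.5 embryo 1 all 8 lie above it.

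Within E11.5 embryo 2 the 13 cells above the line also carried the rest of the smooth muscle genes. Leaving out Acta2, which drew the line, 11 of 15 smooth muscle genes were higher by at least 1 in these cells and 1 was lower, with a median difference of 2.86, against 3.39% and 2.04% of all genes tested and a median of 0. As cells of 1 embryo are no replicates, these differences were not tested. Myl9 was at 8.58 ± 0.76 (SD over 13 cells) above the line and 4.42 ± 1.2 (12 cells) below, Actg2 at 7.07 ± 1.59 and 2.10 ± 1.48, Cnn1 at 6.17 ± 1.40 and 1.05 ± 1.34, and Myh11 at 3.71 ± 2.41 and 0.30 ± 0.79. Nexn (nexilin, an actin-binding protein), Igf1 and Ednrb were likewise higher above the line (6.36, 5.72 and 5.91 against 2.51, 2.50 and 3.59), as was Hhip (5.01 against 2.99). The cells below the line had more Tcf21 (4.29 against 2.52), Pdgfra (1.98 against 0.78), Bmp4 (2.27 against 0.58), Ccnd2 (5.86 against 3.17) and Ccnd1 (3.18 against 0.82). Mgp (7.52 above, 7.26 below), Osr1 (4.05 and 4.71) and Lef1 (3.22 and 3.02) differed by less than the SD between cells in both sets. The median depth was similar, with 250872 UMIs above and 215098.5 below.

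The promoters of the rising genes were searched for the CArG box, the 10-base site bound by serum response factor, the partner of myocardin. Only its strict form was counted (CC, then only A or T, then GG). Sites with another base in the middle stretch were left out, such as CCCTATATGG in the Acta2 promoter. RefSeq promoters (250 bases before to 50 after a gene's start, GRCm38.p6) were found for 73 of the 106 rising genes, and 10 of the 73 (13.7%) held a CArG box on either strand, compared with 176 of 10618 genes tested that had a promoter (1.66%) and 1 of 41 falling genes (2.44%). Of the 16 smooth muscle and pericyte genes tested, 11 had a promoter, and Myl9 alone held a box of the strict form in this window. Among the 11 of the list that rose with day, 7 had a promoter. The other 4 rising genes with a box were Anxa5, Fbxl22, Selenbp1 and Stbd1. Matches are a description of sequence and not of binding. The stretches of Myl9, of Cnn2 (calponin 2), Myl6 (a myosin light chain), Asb2 (an ankyrin repeat protein of muscle), Fhl2 (a LIM domain protein of muscle) and Filip1 (a filamin A interacting protein) are shown because they carry a box in genes that rose with day, each 60 bases, 5′ to 3′ on the strand of the gene, with the box in capitals:
Myl9: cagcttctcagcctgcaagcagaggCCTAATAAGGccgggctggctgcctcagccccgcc
Cnn2: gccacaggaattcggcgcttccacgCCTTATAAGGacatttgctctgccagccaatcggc
Myl6: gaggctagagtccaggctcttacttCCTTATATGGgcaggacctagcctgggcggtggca
Asb2: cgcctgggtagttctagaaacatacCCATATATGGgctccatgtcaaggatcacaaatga
Fhl2: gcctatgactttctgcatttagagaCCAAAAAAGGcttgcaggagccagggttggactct
Filip1: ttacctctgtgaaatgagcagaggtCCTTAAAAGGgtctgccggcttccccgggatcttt

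These stretches lie at chr2:156775278-156775337 (+, Myl9), chr10:79988519-79988578 (+, Cnn2), chr10:128493025-128493084 (−, Myl6), chr12:103356031-103356090 (−, Asb2), chr1:43196823-43196882 (−, Fhl2) and chr9:79977963-79978022 (−, Filip1). The boxes start at −161, −56, −50, −64, −96 and −115 relative to the RefSeq start of the promoter that holds each, in the same order, and this start can differ from the GENCODE start (for Myl9 the RefSeq window runs from 156775214 to 156775513). The slopes of these genes were 3.23 ± 0.47 (Myl9), 1.43 ± 0.32 (Cnn2), 0.92 ± 0.21 (Myl6), 0.57 ± 0.09 (Asb2), 0.87 ± 0.19 (Fhl2) and 1.05 ± 0.14 (Filip1) per day.

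The variation among the 125 cells was then described within embryos. With the embryo means removed, the first principal component over 2000 genes held 5.78% of the variance and was led by genes of mitosis (Ube2c, Cenpf, Top2a, Cdc20 and Cdk1). The second (2.6%) had genes of DNA synthesis such as Rrm2, Clspn and Pcna at one end and Myl9 and Acta2 with genes of mitosis at the other. The third (1.77%) had Cxcl13, Smoc2, Mgp and Sparcl1 at one end and Asb4, Isl1, Bmp4 and Col1a2 at the other. The Cxcl13 end also held Fos, of the early response list, and Cenpf, of mitosis. The correlation of the cells' scores with log2 UMIs was 0.416 for the first component, 0.0876 for the second and −0.26 for the third. The part of depth and handling in these components was not tested. Top2a, a topoisomerase of dividing cells, was expressed by 96 of 125 lung mesenchymal cells.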

How the data were processed

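Single cells of 8 organs from 7 mouse embryos were picked by mouth pipette, tagged with cell barcodes and UMIs, and pooled for 3′ sequencing by the authors. Per the submitters' processing notes and the study's methods, reads were aligned with TopHat2 2.0.12 to mm10, counted per gene with HTSeq, and reduced to UMIs. The deposited values, called TPM by the authors, are CPM, since they sum to 1000000 in each cell and take no account of gene length. Whole UMIs were recovered for 100.0% of the 11760022 values above 0 (within 0.05 of a whole UMI), and every one of the 1916 cell totals equalled that given by the study.

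Cell types were those of the study. Embryo means were taken over at least 3 cells (22 means over 4 organs). Genes at 1 or more in at least 3 mesenchymal cells were kept (14086 of 23154), and limma 3.58.1 (trend, R 4.3.3) was fitted on log2(value/10 + 1) with organ and stage, or with organ and a day slope in each of lung, intestine and skin. Nothing in the labels says that embryos shared a litter or a day of preparation. P-values were adjusted by Benjamini-Hochberg over all genes tested. Procedures were also run on simulated cells with known changes. Their noise was drawn separately for each organ and embryo, with no effect shared by the organs of an embryo. That run does not show how far the calls hold for the real embryos. Alternatives were log2(value + 1), no filter, at least 5 cells per mean, an embryo block, no stage term, edgeR 4.0.16 on summed UMIs (an alternative with whole UMIs only), thinning to 100000 UMIs, HiSeq 4000 libraries only (by the labels, since the methods name that platform for all libraries), and each embryo left out. Organs of the same embryo come from the same animal, so the embryo pairs them (r of deviations −0.0983 to 0.353 over 25 pairs, consensus correlation 0.0645). Where both organs have only 2 embryos at a stage, the deviations of these mirror each other. Both embryos then give the same r, so the 25 values are not independent. Depth was 28014 to 1556349 UMIs per lung mesenchymal cell, and counting intervals were not used because the embryo is the replicate.

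The named genes were, per direction, the 10 with the largest change among called genes that moved alike in every embryo for the lung against the 3 organs and for the lung slope (for the slope, E9.5 and E11.5 embryos that did not overlap), and the 5 largest called for each other comparison, beside the 4 markers and members of 24 lists. For the organs, each lung embryo was compared with the mean of the other organs of the same embryo, which included liver at E9.5 alone. The cells, markers and gene lists were chosen with earlier results of these data known. Of the lists not described in the report, cartilage, mesothelium, endothelial, blood, epithelial, neuronal and early response genes had no call in the comparison with the mean of the organs or in the lung slope. Over all genes tested, 0.738% and 1.11% were called there. In single organ comparisons Krt8 and Krt18 (epithelial) were lower and Sox9 (cartilage) higher than in the intestine, Wt1 and Upk3b (mesothelium) lower than in the liver, and Col2a1 and Col9a1 (cartilage) lower than in the skin. Of 7 cardiomyocyte genes Tnni1 was lower than in the mean of the organs, and Myl7, Tnni1 and Myl4 lower than in the liver. In the whole series 14 pairs of cells held identical values, none of them among mesenchymal cells. Promoter sequences were from RefSeq (GRCm38.p6). No proteins are printed.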

Additional observations from a re-analysis of the deposited data

Results flagged for a closer look

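Among 40 values per embryo examined in the lung, 9 had 1 embryo far from the other 5. E9.5 embryo 2 accounted for 6 of them, with Sfrp1 at 3.01, Crabp1 at 2.38, Myl7 at 3.07, Myl4 at 0.86, a summed level of cardiomyocyte markers of 8.35 and a median of 737157.5 UMIs per cell. It was the embryo labelled female and, in the lung, the one labelled HiSeq 2500. Sfrp1 and Crabp1 were still called lower in the lung than in the mean of the organs without this embryo, but Sfrp1 lost its call without the filter on low values and without E10.5 embryo 1, E10.5 embryo 2 or E11.5 embryo 2 (limma adjusted p up to 0.131), and Crabp1 without E9.5 embryo 3 (limma adjusted p = 0.109). The early response genes summed to 39.87 in E10.5 embryo 2, Saa2 was at 1.25 in E9.5 embryo 3, and Mab21l2 was at 0.17 in E10.5 embryo 2 against 0 in the rest. With 0 in 5 embryos, any other value of Mab21l2 would have been marked. Chance alone marks about 1 in 20 independent, normally distributed values. The 40 values are not independent, as Myl7 and Myl4 also enter the cardiomyocyte sum, so the 9 cannot be set against that share.

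The slope per day differed between the lung and the mean of intestine and skin, by the limma test of the difference itself, for 49 genes. The 5 largest positive differences were those of Acta2 (4.49), Myl9 (3.28), Actg2 (2.76), Mgp (2.57) and Ednrb (2.24), and the largest negative ones those of Aldh1a2 (−2.23), Cdo1 (−1.91), Cxcl13 (−1.36), D030025E07Rik (−0.80) and Ranbp1 (−0.77). For Aldh1a2, which makes retinoic acid, the lung slope was not called, and the intestine went from a mean of 0.14 at E9.5 to 5.92 at E11.5. For Cdo1, cysteine dioxygenase, the skin went from 1.10 to 5.87. None of these 10 differences was called under every alternative. That of Mgp was lost with edgeR alone.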

How the results depend on the processing

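Of 80 named values, 43 were called under every alternative, and 1028 of 1170 recomputed values were still called. One reversed: the slope difference of D030025E07Rik was 2.82 with edgeR. The embryo block gave 101, 198, 113, 312, 157 and 62 calls (mean of organs, intestine, liver, skin, lung slope, slope difference) and changed only the call of Akap12 among the named genes. With log2(value + 1) 217, 335, 213 and 604 genes were called in the 4 organ comparisons. Without the filter the slope difference had 23 calls, and with thinned cells 31. Without the stage term the liver comparison had 217. With edgeR there were 207 calls against the mean of organs (155 higher and 52 lower, against 57 and 47), 279 against the intestine (173 and 106, against 94 and 100), 405 against the skin (209 and 196, against 98 and 207), 66 against the liver, 40 for the lung slope and 8 for the slope difference. Among HiSeq 4000 libraries the liver comparison had 73 calls, the lung slope 59 and the slope difference 2. With single embryos left out the calls ranged from 64 (without E10.5 embryo 1) to 103 against the mean of organs, 118 (without E10.5 embryo 1) to 191 against the intestine, 75 (without E10.5 embryo 2) to 114 against the liver, 225 to 296 against the skin, 32 (without E11.5 embryo 1) to 210 for the lung slope and 9 (without E9.5 embryo 2) to 61 for the slope difference. The lung slope had 72 calls without E9.5 embryo 2 and 99 without E9.5 embryo 3, and the slope difference 11 without E11.5 embryo 1 and 19 without E9.5 embryo 3. The causes were not tested. Day comparisons in the lung rest on 2 embryos a day, and E11.5 embryo 1 has 8 cells.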

Other observations

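The 21 lung cells of the mesoderm-derived group that carry no mesenchymal label were mixed. Osr1 was expressed by 10 of them and Col3a1 by 14. The myosin light chain Myl7 reached 10.54 and 9.71 in 2 cells, with the troponin Tnnt2 at 9.33 and 8.10 and the cardiac factor Nkx2-5 at up to 5.97 in the group. The endothelial gene Pecam1 reached 5.14 and 2.73, and Cdh5 4.10 and 2.83.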
